A study of Homo sapiens with 21 samples.

Results

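The comparison described here is that of METTL4 siRNA (METTL4-si) with scrambled control siRNA (Scr-si) in FADU cells kept in hypoxia, across all genes and with the genes that hypoxia alone did not move taken separately. Its members are 4 of the 21 RNA-seq libraries of the series, 2 of METTL4-si and 2 of Scr-si, all from cells at 1% O2 for 18 h. FADU is an established head and neck squamous carcinoma cell line, and the siRNA (METL4-si or Scramble-si in the labels) is the sole difference that the labels give between the groups. A further 2 libraries of Scr-si cells at 18% O2 (normoxia) for 18 h were used to say which genes hypoxia moved, and they and the Scr-si libraries in hypoxia carry no alteration of METTL4. The labels give replicate numbers but do not say that replicates came from separate cultures, so p-values measure the spread between these libraries only, which may be technical. BFTC-909 cells under the same siRNAs and 2 FADU clones with a mutated METTL4 are set beside these libraries at the end.

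METTL4 belongs to the MT-A70 family of adenine methyltransferases, and it is known to methylate adenine in DNA and in the U2 small nuclear RNA. In low oxygen the prolyl hydroxylases that mark the HIF-1α subunit for destruction lose activity, HIF-1α pairs with HIF-1β (ARNT), and the pair binds short DNA elements beside genes of glycolysis, glucose uptake, iron and pH balance and vessel growth. Cells in hypoxia also turn mitochondria over and use less respiration. The question of the comparison is which transcripts of hypoxic cells differ when METTL4 is targeted.

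Values are counts per 1000000 reads, scaled between libraries by the TMM method (called CPM below). The 6 libraries held 21162570 to 24864024 reads on genes. A gene was tested if it reached 1 CPM in at least 2 of the 6 libraries, which left 16324 of 19505 genes. Log2 fold changes are differences of log2(CPM + 1), METTL4-si minus Scr-si in hypoxia, with standard errors (SE) and Benjamini-Hochberg adjusted p-values by limma over all tested genes. A gene was called higher or lower, or is said to have risen or fallen, at an adjusted p under 0.05 with at least a 1.3-fold difference. Leading genes were ranked by the smaller of the differences that the 2 METTL4-si libraries showed from the Scr-si mean, among called genes with a mean of at least 5 CPM over the 4 libraries.

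METTL4 itself (ENSG00000101574, chr18:2537524-2571508, GRCh37, minus strand) did not differ in RNA level. It had 26.6 and 25.3 CPM in the Scr-si libraries in hypoxia and 24.2 and 27.1 CPM in the METTL4-si libraries, so that the groups overlapped. Its log2 fold change was -0.02 (SE 0.09, adjusted p = 0.90). In normoxia it had 31.9 and 30.8 CPM. The METTL4 transcript was thus not lower under its siRNA, METTL4 protein was not measured here, and METTL4-si below stands for the libraries so labelled.

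Replicate 1 of METTL4-si also held transcripts that the other libraries nearly lack. Of 17 luminal breast epithelium markers, 11 were in the table, and their summed level was 854 CPM in METTL4-si replicate 1, 120 in METTL4-si replicate 2, 107 and 112 in the Scr-si libraries in hypoxia, and 254 and 115 in normoxia. TFF1, an estrogen-induced secreted peptide, was at 135 CPM in METTL4-si replicate 1, at 26.2 in normoxia replicate 1 and at 0 in the other 4 libraries. COL3A1, a fibroblast collagen, was at 109 CPM in METTL4-si replicate 1 and at 20.3 in normoxia replicate 1, with at most 0.04 CPM in the others. Of 19505 genes, 216 were at least 4-fold higher in METTL4-si replicate 1 than in replicate 2 on the CPM + 1 scale and 2 were as much lower. Of these 216 genes 169 were tested and 2 were called higher, the arginine transporter gene SLC7A2 and PLXDC2. All 9 squamous markers, among them TP63 and KRT5, were present in every library, with a summed level of 3454 and 3994 CPM in METTL4-si, 5573 and 5981 in Scr-si in hypoxia, and 5103 and 4895 in normoxia. TP63 and KRT5 fell, with log2 fold changes of -0.79 and -0.61, as did KRT14, KRT17, SFN and EGFR. The markers KRT6A, DSG3 and CDH3 did not fall by 1.3-fold. KRT6A had 22.0 and 23.4 CPM in Scr-si in hypoxia and 27.8 and 31.0 CPM in METTL4-si. In bulk RNA fewer cells of a type and less RNA per cell cannot be told apart. Where leaving out METTL4-si replicate 1 moves a count below by more than 1.5 times, the count without it or the change in replicate 2 alone is given.

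METTL4-si was called higher in 2038 of the 16324 tested genes (12.5%) and lower in 2496 (15.3%), with a median log2 fold change over all tested genes of 0.02. Of these, 287 were at least 2-fold higher and 386 at least 2-fold lower. In METTL4-si replicate 2 alone, 1848 of the 2038 higher genes were at least 1.3-fold above the Scr-si mean and 2281 of the 2496 lower genes at least 1.3-fold below it, and none went the other way. Replicate 2 was part of the fit that called these genes, so this is a description and not an independent check. With METTL4-si replicate 1 left out of the fit, 2199 genes were called higher and 2980 lower, of which 1719 and 2224 were among those called with all libraries. A fit that leaves 1 library in a group assumes that this group varies like the others. The METTL4-si replicates varied more than the Scr-si replicates in hypoxia. In METTL4-si, 216 genes were at least 4-fold higher in replicate 1 than in replicate 2, against 1 gene for Scr-si in hypoxia. The counts of such fits are therefore uncertain. With the 4 hypoxia libraries alone, 1559 genes were higher and 2214 lower. Of the libraries left out in turn, the Scr-si libraries in hypoxia lowered the counts most. Without Scr-si hypoxia replicate 1 there were 786 higher and 1368 lower genes, and without replicate 2 there were 771 and 1264. The quasi-likelihood test of edgeR on the recovered whole reads called 2042 genes higher and 2618 lower.

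**Figure D1:**
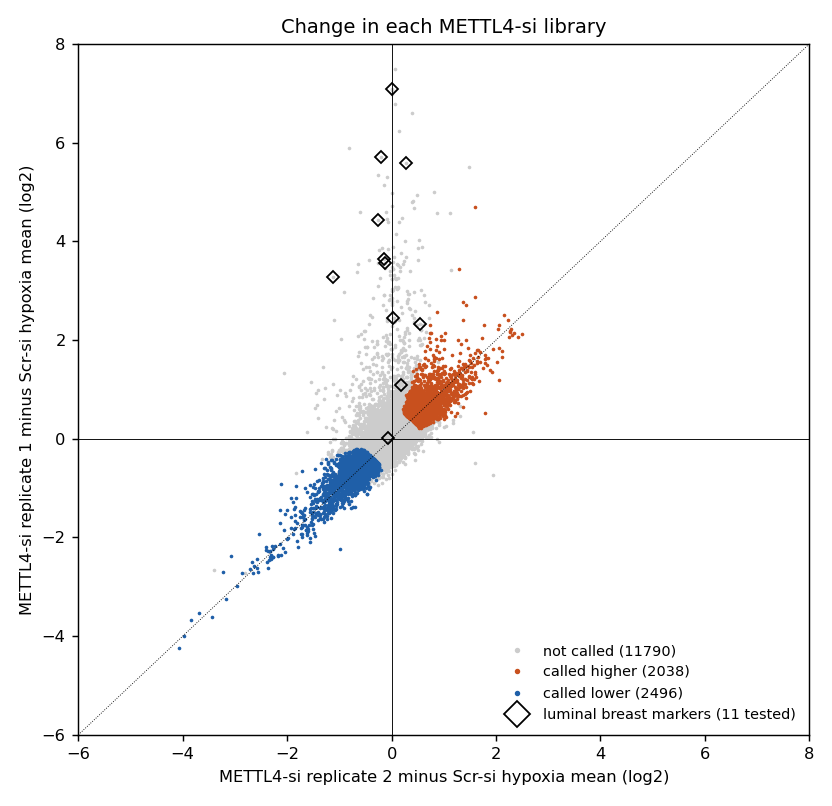
Each point is a gene tested, with its log2 difference from the mean of the 2 Scr-si libraries in hypoxia in METTL4-si replicate 2 (horizontal axis) and in METTL4-si replicate 1 (vertical axis). Orange points were called higher, blue points lower and grey points neither. Open diamonds are the 11 luminal breast markers that were tested, most of which lie far above 0 in replicate 1 and near 0 in replicate 2.

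The genes that fell most were genes of the hypoxia response. NDRG1, a stress-response gene and the first of the 12 leading lower genes, had 2650 and 3135 CPM in Scr-si in hypoxia, 152 and 171 CPM in METTL4-si, and 144 and 146 CPM in normoxia. The METTL4-si libraries lay with the normoxic ones, and the log2 fold change was -4.15 (SE 0.10, adjusted p = 1.74e-05). EGLN3, the oxygen-sensing prolyl hydroxylase that HIF induces, had 274 and 311 CPM in Scr-si and 17.2 and 17.6 CPM in METTL4-si (log2 fold change -3.99, SE 0.10). BNIP3, a mitophagy receptor, had 188 and 175 CPM in Scr-si and 13.2 and 11.7 CPM in METTL4-si (log2 fold change -3.76, SE 0.09). CA9, the cell-surface carbonic anhydrase that exports acid, fell from 31.0 and 37.8 CPM to 1.87 and 2.22 CPM, a log2 fold change of -3.53 (SE 0.14). In each of these genes the groups did not overlap, which follows from how the leading genes were ranked. Over all 16324 tested genes, both METTL4-si libraries lay below both Scr-si libraries in hypoxia in 5613 and above both in 5537.

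The rest of the 12 leading lower genes include an ion channel partner, a transporter and a lncRNA. TCAF2, a TRP channel partner, fell from 34.3 and 37.6 CPM to 2.19 and 1.87 CPM. DNAH11, a ciliary dynein heavy chain, fell from 32.7 and 29.8 CPM to 2.39 and 2.58 CPM, and RIMKLA, which joins N-acetylaspartate to glutamate, fell from 21.2 and 25.3 CPM to 2.07 and 2.09 CPM. ADM encodes adrenomedullin, a vasodilator peptide, and SLC6A8 the creatine transporter. ADM fell from 57.5 and 60.9 CPM to 8.10 and 7.25 CPM, and SLC6A8 from 100.1 and 112 CPM to 15.4 and 10.4 CPM. TMEM45A, BNIP3L (a second mitophagy receptor) and H19 (an imprinted lncRNA) complete the 12, with log2 fold changes of -2.68, -2.61 and -2.60. H19 stood below its normoxic level, with 69.2 and 71.8 CPM in METTL4-si against 120 and 104.8 CPM in normoxia and 406 and 459 CPM in Scr-si in hypoxia.

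Most of the hypoxia list fell. Of 43 tested hypoxia response genes outside glycolysis, 39 were lower and 1 was higher, beside 15.3% and 12.5% of all tested genes, and their median log2 fold change was -1.75 beside 0.02 over all genes. In METTL4-si replicate 2 alone the median was -1.72. PFKFB4, which makes the glycolytic activator fructose bisphosphate, fell from 59.8 and 63.5 CPM to 10.1 and 8.77 CPM. PDK1, which keeps pyruvate out of mitochondria, fell from 263 and 271 CPM to 51.6 and 58.2 CPM, and SLC2A1, the glucose transporter GLUT1, from 1281 and 1409 CPM to 353 and 364 CPM. The member that rose was VEGFA, the vessel growth factor, with 176 and 189 CPM in Scr-si, 235 and 267 CPM in METTL4-si, and 237 and 248 CPM in normoxia (log2 fold change 0.45, SE 0.08, adjusted p = 0.0073). The list was chosen with results of these samples known, so its direction is not independent evidence.

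The short sequences that HIF binds were looked for in the 250 bases before the RefSeq gene start (build GRCh38.p14), as the letters ACGTG, or with G in place of the leading A, on either strand. They occurred in 43.1% of the first-listed promoters of all 27305 genes in the table of promoters. A promoter was found for 34 of the 43 hypoxia response genes, and 26 of them (76.5%) held a match, as did 10 of 17 glycolysis genes (58.8%). Across protein-coding genes the match was about as frequent in those called lower (56.9%), higher (54.4%) and not called (58.6%), so these letters were not more frequent among the called genes at large. Windows around the match nearest the start are shown for the leading lower genes that hold a match and for PFKFB4, LDHA and PGK1, since these genes carry the fall. They are written 5′ to 3′ on the gene's strand, with the core or its reverse complement in capitals.
BNIP3, chr10:131982006-131982045, minus strand: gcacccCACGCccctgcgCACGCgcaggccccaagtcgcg
CA9, chr9:35673892-35673927, plus strand: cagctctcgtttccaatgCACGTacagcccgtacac
DNAH11, chr7:21542864-21542903, plus strand: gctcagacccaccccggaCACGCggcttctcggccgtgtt
RIMKLA, chr1:42380542-42380565, plus strand: gcCACGTccaccgggtgtccgggg
ADM, chr11:10304954-10304993, plus strand: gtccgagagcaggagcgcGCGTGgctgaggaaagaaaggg
PFKFB4, chr3:48556948-48556987, minus strand: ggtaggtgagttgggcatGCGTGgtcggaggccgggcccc
LDHA, chr11:18394472-18394511, plus strand: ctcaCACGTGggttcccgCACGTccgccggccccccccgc
PGK1, chrX:78104047-78104086, plus strand: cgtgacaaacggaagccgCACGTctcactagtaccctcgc
No match lay in this window for EGLN3, TCAF2, SLC6A8, TMEM45A or H19, and NDRG1 and BNIP3L were not searched.

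The enzymes of glycolysis fell together, several of them to below their normoxic level. Of 18 genes for glycolytic enzymes and lactate export, 16 were lower and none was higher, with a median log2 fold change of -1.57. LDHA, which turns pyruvate into lactate, had 2315 and 2401 CPM in Scr-si in hypoxia, 444 and 470 CPM in METTL4-si, and 834 and 862 CPM in normoxia, a log2 fold change of -2.36 (SE 0.07, adjusted p = 2.76e-05). GAPDH had 4579 and 4955 CPM in Scr-si, 1697 and 1609 CPM in METTL4-si and 3407 and 3373 CPM in normoxia, and ENO1, the enolase, had 1821 and 1946 CPM, 793 and 718 CPM and 1127 and 1172 CPM in the same order. For HK2, the hexokinase that HIF induces, METTL4-si lay at the normoxic level, with 64.6 and 64.2 CPM against 61.7 and 61.0 CPM in normoxia and 281 and 294 CPM in Scr-si in hypoxia. Whether METTL4-si differed from normoxia was not tested. Of 8 genes of glycogen metabolism 7 fell as well, among them PYGL, the phosphorylase that breaks glycogen down. The branching enzyme GBE1 went from 48.1 and 47.5 CPM to 15.6 and 14.2 CPM, and the synthase GYS1 from 77.8 and 83.6 CPM to 41.9 and 35.6 CPM.

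The genes of the HIF complex itself mostly did not pass the test. Of 13 tested HIF subunits and oxygen sensors, 3 were lower, namely EGLN3, EGLN1 and ARNT, and none was higher, and without METTL4-si replicate 1, 5 were lower. HIF1A had 157 and 155 CPM in Scr-si and 208 and 188 CPM in METTL4-si, a log2 fold change of 0.34 (SE 0.07, adjusted p = 0.012) that stayed under 1.3-fold. EPAS1, the HIF-2α gene, had 73.5 and 78.3 CPM in Scr-si and 60.3 and 61.0 CPM in METTL4-si, also under 1.3-fold. ARNT, the HIF-1β gene, fell from 59.4 and 60.8 CPM to 50.6 and 39.1 CPM (log2 fold change -0.42, SE 0.12, adjusted p = 0.035).

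Other lists that fell more often than genes at large (15.3% lower, 12.5% higher) overlap in part with the hypoxia response. Of 20 histone lysine demethylases, which need oxygen for their reaction, 8 were lower and none was higher, led by KDM3A, which fell from 279 and 287 CPM to 93.0 and 101.4 CPM. Of 24 autophagy and mitophagy genes, 14 were lower and 1 was higher, and beside BNIP3 and BNIP3L these included GABARAPL1, from 22.5 and 28.3 CPM to 9.17 and 11.04 CPM, and the cargo receptor OPTN, from 22.4 and 25.1 CPM to 11.3 and 11.2 CPM. Of 23 cholesterol synthesis genes, 12 were lower and none was higher. HMGCS1, which makes the HMG-CoA of that pathway, fell from 437 and 509 CPM to 145 and 161 CPM, below its normoxic 246 and 272 CPM. The lipid droplet coat gene PLIN2 fell from 37.9 and 48.6 CPM to 12.1 and 14.2 CPM.

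The leading higher genes were of several kinds. ELFN2, a postsynaptic membrane protein gene, rose from 5.89 and 5.75 CPM in Scr-si to 30.7 and 32.2 CPM in METTL4-si, and NRP2, a semaphorin and VEGF co-receptor, from 2.43 and 2.24 CPM to 12.9 and 14.8 CPM. GDF15, a stress-induced cytokine, rose from 4.94 and 5.88 CPM to 30.4 and 25.5 CPM, and KLK6, a kallikrein protease, from 30.2 and 34.8 CPM to 147 and 168 CPM. These 4 genes had been lower in hypoxia than in normoxia, and the METTL4-si libraries lay nearer to their normoxic levels than the Scr-si libraries in hypoxia did. ARHGEF4, a guanine nucleotide exchange factor, rose from 8.85 and 10.3 CPM to 47.2 and 49.8 CPM, above its normoxic 30.4 and 30.0 CPM. SLC16A14, the lncRNA gene MIR663AHG and the cytokine gene LIF also stood among the first 12, with log2 fold changes of 1.95, 2.20 and 1.89.

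The mitochondrially encoded mRNAs rose as a group. Of the 13, 12 were higher and none was lower, and their median log2 fold change was 1.08, or 1.18 in METTL4-si replicate 2 alone. They made up 6.47% and 7.10% of all CPM in METTL4-si, 3.78% and 3.65% in Scr-si in hypoxia, and 5.69% and 4.88% in normoxia. MT-ATP8, an ATP synthase subunit, rose from 112 and 115 CPM to 496 and 647 CPM (log2 fold change 2.31, SE 0.13, adjusted p = 0.00015). MT-ND6, the complex I subunit encoded on the opposite strand, rose from 118 and 102 CPM to 513 and 453 CPM. MT-ATP8 overlaps MT-ATP6, and whether reads were counted by strand is not given in the sources used here, so overlapping and opposite-strand genes may share reads. MT-CO1 alone did not pass, with 9296 and 9138 CPM in Scr-si and 10861 and 11877 CPM in METTL4-si (adjusted p = 0.12). The nuclear-encoded partners did not rise with them: of 54 respiratory chain genes none was higher and 19 were lower, among them UQCRB of complex III, from 122 and 122 CPM to 72.3 and 70.8 CPM, and CYCS, cytochrome c, from 138 and 128 CPM to 88.6 and 86.9 CPM. In bulk RNA a change in mitochondrial DNA copies, in RNA per copy and in the share of all RNA cannot be told apart.

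Of 16 genes of the EGF receptor family, its ligands and its feedback inhibitors, 9 were higher and 3 were lower, beside 12.5% and 15.3% of all tested genes. The share of lower genes (18.8%) was thus near that of all genes. Ligands and receptors went in both directions. The ligand gene EREG rose from 49.2 and 50.8 CPM to 159 and 218 CPM, HBEGF from 5.80 and 6.11 CPM to 16.2 and 20.2 CPM, and BTC from 2.38 and 2.33 CPM to 8.45 and 7.83 CPM. AREG, a further ligand, rose from 2.16 and 1.92 CPM to 11.3 and 4.49 CPM, with the library that holds other transcripts the higher. NRG4, a ligand of the family, fell from 35.1 and 36.5 CPM to 8.73 and 11.04 CPM. EGFR itself fell from 1963 and 2020 CPM to 1120 and 1423 CPM (log2 fold change -0.66, SE 0.12, adjusted p = 0.0073), while ERBB3, another receptor, had 49.2 and 51.1 CPM in Scr-si and 98.5 and 65.8 CPM in METTL4-si and was called higher. The feedback inhibitors SPRY2, SPRY4 and DUSP4 rose, and ERRFI1, another inhibitor of the receptor, fell from 66.3 and 71.2 CPM to 40.5 and 46.6 CPM.

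Of 18 inflammatory cytokines and NF-kB feedback genes 11 were higher and 1 was lower, beside 12.5% and 15.3% of all tested genes. Their median log2 fold change was 0.54. BIRC3, an inhibitor of apoptosis induced by NF-kB, rose from 14.7 and 15.0 CPM to 26.3 and 35.9 CPM, and the feedback inhibitors TNFAIP3 and NFKBIA from 25.2 and 27.9 to 39.9 and 48.1 CPM and from 44.5 and 52.9 to 76.8 and 71.4 CPM. CXCL8, the neutrophil chemokine, had 16.6 and 22.3 CPM in Scr-si and 30.5 and 40.9 CPM in METTL4-si (log2 fold change 0.85, SE 0.19, adjusted p = 0.014). LCN2, an iron-binding lipocalin, fell from 7.32 and 7.66 CPM to 2.47 and 2.45 CPM. Of 17 Wnt pathway genes 5 were higher (29.4%, beside 12.5% of all tested genes), none was lower and 12 did not pass. The 5 included WNT7B, from 49.5 and 42.2 CPM to 86.2 and 79.7 CPM, and the ligand WNT10B. Of 16 angiogenic factors and IGF binding proteins 5 were higher and 5 lower, beside 12.5% and 15.3% of all tested genes. With the 4 hypoxia libraries alone 3 were higher. The lower ones were ADM, ANGPTL4, IGFBP3, PGF and VEGFC, with IGFBP3 going from 246 and 308 CPM to 44.2 and 52.7 CPM. The higher ones were VEGFA, the semaphorin co-receptors NRP1 and NRP2, IGFBP2 and IGFBP4. IGFBP2 had 12.3 CPM in METTL4-si replicate 1 and 3.11 CPM in replicate 2. IGFBP4 had 75.2 and 50.5 CPM there, and it was not called without METTL4-si replicate 1 or with the 4 hypoxia libraries alone.

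Genes of the endoplasmic reticulum and of nutrient uptake rose in part. Over all tested genes 12.5% were higher and 15.3% lower. Of 21 chaperones and sensors of the unfolded protein response 7 were higher and none was lower, by small amounts: DNAJB11 went from 87.2 and 84.1 CPM to 141 and 159 CPM, and MANF from 48.1 and 51.0 CPM to 67.4 and 75.2 CPM. XBP1, the transcription factor of that response, had 228 CPM in METTL4-si replicate 1 and 86.6 in replicate 2 against 48.7 and 53.3 CPM in Scr-si, so that the first library carried most of its fold change of 3.09. Of 14 amino acid transporter genes 8 were higher and none was lower. SLC7A11, the cystine importer, rose from 145 and 155 CPM to 246 and 316 CPM, and SLC6A9, a glycine transporter, from 10.4 and 11.9 CPM to 25.5 and 25.3 CPM. SLC7A2 again rested on the first library, with 81.5 CPM there, 8.59 CPM in the second, and 2.61 and 1.78 CPM in Scr-si. Without METTL4-si replicate 1, 6 chaperone genes and 6 amino acid transporters were higher, and with the 4 hypoxia libraries alone 5 amino acid transporters were.

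**Figure D2:**
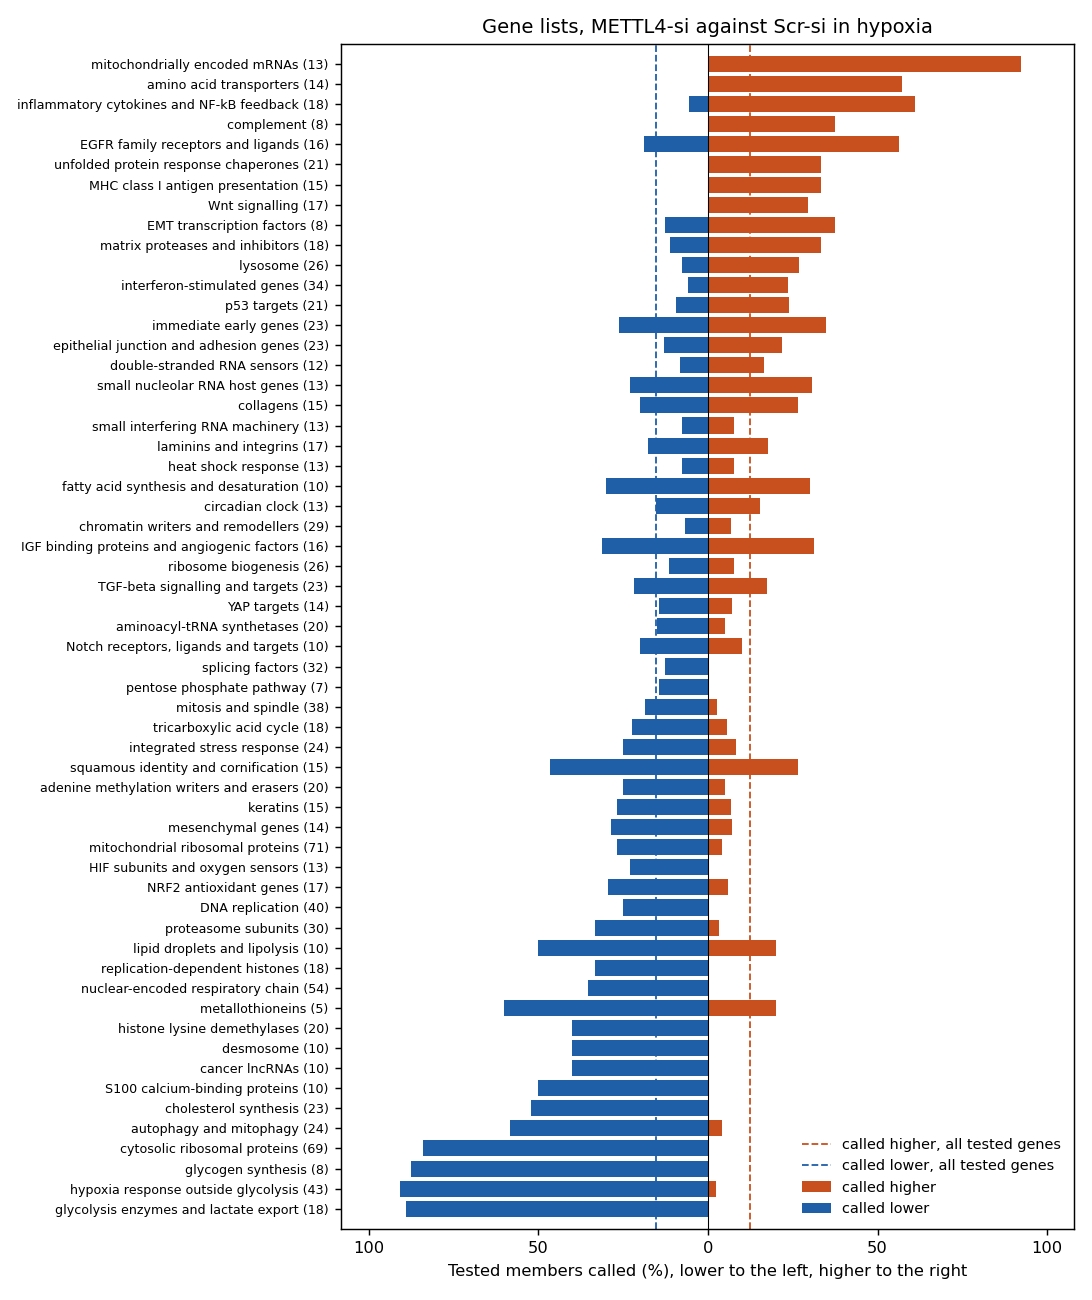
Percent of the tested members of each of 58 gene lists called higher (orange, to the right) and lower (blue, to the left) in METTL4-si against Scr-si in hypoxia, with the number tested in brackets and the percent over all tested genes as dashed lines (12.5% higher and 15.3% lower). Glycolysis, the hypoxia response, glycogen synthesis (a list that also holds the breakdown gene PYGL) and cytosolic ribosomal proteins stand at the lower end. Mitochondrially encoded mRNAs stand at the upper end.

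Many calls fell on genes that hypoxia alone did not move, though such genes were called less often than genes at large. A gene was counted as not moved when Scr-si in hypoxia and in normoxia differed by less than 1.3-fold, also against normoxia replicate 2 alone, and was not called in that contrast. Of 11093 such genes, 967 were higher and 1439 were lower in METTL4-si, which is 2406 of all 4534 calls. Over all 16324 tested genes, 2038 were higher and 2496 lower. Of the genes called higher in hypoxia, 912 were lower in METTL4-si, 21 were higher and 655 were not called. Of those called lower in hypoxia, 794 were higher, 35 were lower and 746 were not called. The changes in genes not moved by hypoxia were smaller than those above, with 44 genes at least 2-fold higher and 62 at least 2-fold lower. In METTL4-si replicate 2 alone, which was part of these calls, 840 of the 967 and 1292 of the 1439 were at least 1.3-fold away from the Scr-si mean. The contrast of hypoxia with normoxia and that of METTL4-si with Scr-si share the Scr-si libraries in hypoxia, so that an error in these moves both. Without Scr-si hypoxia replicate 1, 224 genes not moved by hypoxia were higher and 704 lower, and without replicate 2, 239 and 681. Without METTL4-si replicate 2, 1543 were higher.

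The leading lower genes among them encode regulators of small GTPases and actin, a ribosomal protein and an antioxidant enzyme. ARHGDIB, which holds small GTPases inactive in the cytosol, had 61.9 and 67.1 CPM in normoxia, 82.7 and 78.3 CPM in Scr-si in hypoxia, and 21.2 and 25.8 CPM in METTL4-si, a log2 fold change of -1.74 (SE 0.11, adjusted p = 0.00021). EFHD2, a calcium-binding actin regulator, fell from 306 and 307 CPM to 109 and 115 CPM, and COTL1, an F-actin binding protein, from 319 and 328 CPM to 124 and 131 CPM. GPX1, the glutathione peroxidase, fell from 42.1 and 42.3 CPM to 17.5 and 17.6 CPM (log2 fold change -1.22, SE 0.07, adjusted p = 0.00020), with 40.5 and 41.6 CPM in normoxia. S100A2, a calcium-binding protein of squamous cells, fell from 428 and 448 CPM to 170 and 190 CPM, and SNX3, a retromer partner, and MTPN, which binds actin capping protein, had log2 fold changes of -1.20 and -1.21. In all of them the METTL4-si libraries lay below every other library, which follows from how these genes were chosen.

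**Figure D3:**
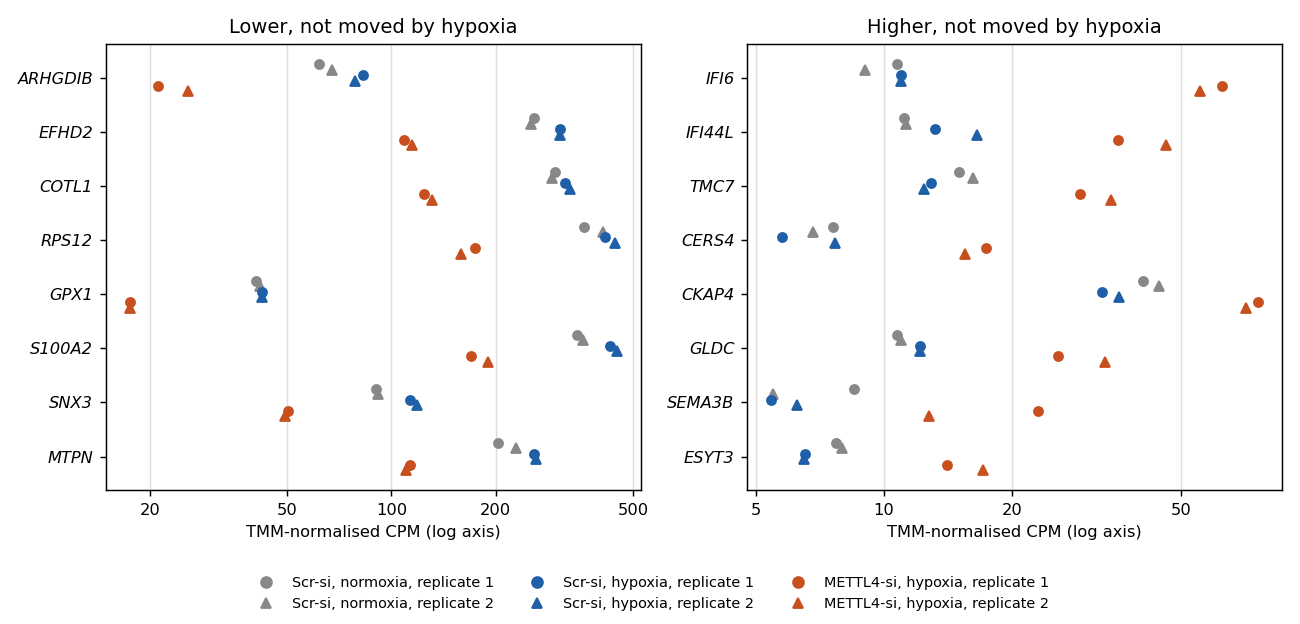
TMM-normalised CPM (log axis) by library of the 8 leading lower and 8 leading higher genes among those not moved by hypoxia, with colours for groups and circles and triangles for replicates 1 and 2. By the choice of these genes, the grey normoxic and blue hypoxic Scr-si points lie close together and the orange METTL4-si points lie apart from them. GPX1, for example, had 17.5 and 17.6 CPM against 40.5 to 42.3 CPM.

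Of the 58 lists, the cytosolic ribosomal proteins held the most lower genes that hypoxia had not moved. Of 69 tested, 58 were lower and none was higher. Hypoxia had not moved 60 of the 69, and 54 of these were lower, beside 1439 lower of all 11093 genes not moved. The median log2 fold change of the 69 was -0.67. The fall was -0.52 in METTL4-si replicate 1 and -0.84 in replicate 2, which holds fewer transcripts of other cells, and without replicate 1, 64 were lower and 1 was higher. Their share of all CPM was 1.93% and 1.63% in METTL4-si, 2.78% and 2.89% in Scr-si in hypoxia, and 2.84% and 2.87% in normoxia. RPS12, of the small subunit, had 415 and 442 CPM in Scr-si and 175 and 159 CPM in METTL4-si (log2 fold change -1.36, SE 0.09, adjusted p = 0.00025), and RPLP0, of the large subunit's stalk, had 1336 and 1434 CPM against 674 and 569 CPM. RPSA, the largest fall at -1.41, went from 1065 and 1131 CPM to 424 and 402 CPM. RPL26 and RPS15A were among the 11 that did not pass, with log2 fold changes of -0.09 and -0.17. These genes have many processed pseudogenes of nearly the same sequence, so reads may have been split between copies. Of 683 processed pseudogenes tested, of any gene, 117 were lower (17.1%), near the 15.3% of all tested genes. Those of ribosomal proteins were not counted apart, so this share does not bear on such a split.

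Length and level moved with this fall in part. Among 10416 protein-coding genes with a mean of at least 5 CPM, the 1042 with the shortest exonic length (207 to 2455 bases) had a median log2 fold change of -0.16 and 26.8% lower genes, against -0.03 and 15.5% in the 1042 longest. Without the ribosomal proteins these shortest genes had a median of -0.14. Of the 69 ribosomal protein genes 23 were among them, and the median exonic length of the 69 was 3461 bases. Exonic length here counts all bases under the exons of every annotated transcript of a gene. It can therefore exceed the length of the mRNA, and the 23 do not count the genes with a short mRNA. The 542 other protein-coding genes whose Scr-si level lay within the middle range of the ribosomal proteins (224 to 515 CPM) had a median of -0.25 and 38.4% lower genes. The part of length, level and RNA quality in the fall of the ribosomal proteins was not tested.

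Ribosomal protein mRNAs are known to start with a C followed by a run of pyrimidines, the terminal oligopyrimidine motif through which their translation is controlled. At the RefSeq start, a C followed by 4 pyrimidines was found in 38 of the 55 ribosomal protein genes with a promoter (69.1%) and in 4.04% of all promoters. Among other protein-coding genes, 506 had such a start and 98 of them were lower (19.4%), beside 17.2% of the 9608 with another start. Of 18 tested translation factors and related genes known for such a start, a group chosen after its values had been seen, 10 were lower and none was higher, with a median log2 fold change of -0.45. The 10 bases before and the 20 bases after the start are shown for the 5 ribosomal protein genes with the largest falls that hold it, with the pyrimidine run in capitals.
RPSA, chr3:39406710-39406739, plus strand: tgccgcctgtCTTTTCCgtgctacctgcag
RPS12, chr6:132814559-132814588, plus strand: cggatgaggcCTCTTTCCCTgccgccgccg
RPLP0, chr12:120201092-120201121, minus strand: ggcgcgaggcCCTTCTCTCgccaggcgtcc
RPL39, chrX:119791611-119791640, minus strand: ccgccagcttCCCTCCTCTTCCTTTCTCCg
RPL7A, chr9:133348208-133348237, plus strand: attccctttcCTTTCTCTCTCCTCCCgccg

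**Figure D4:**
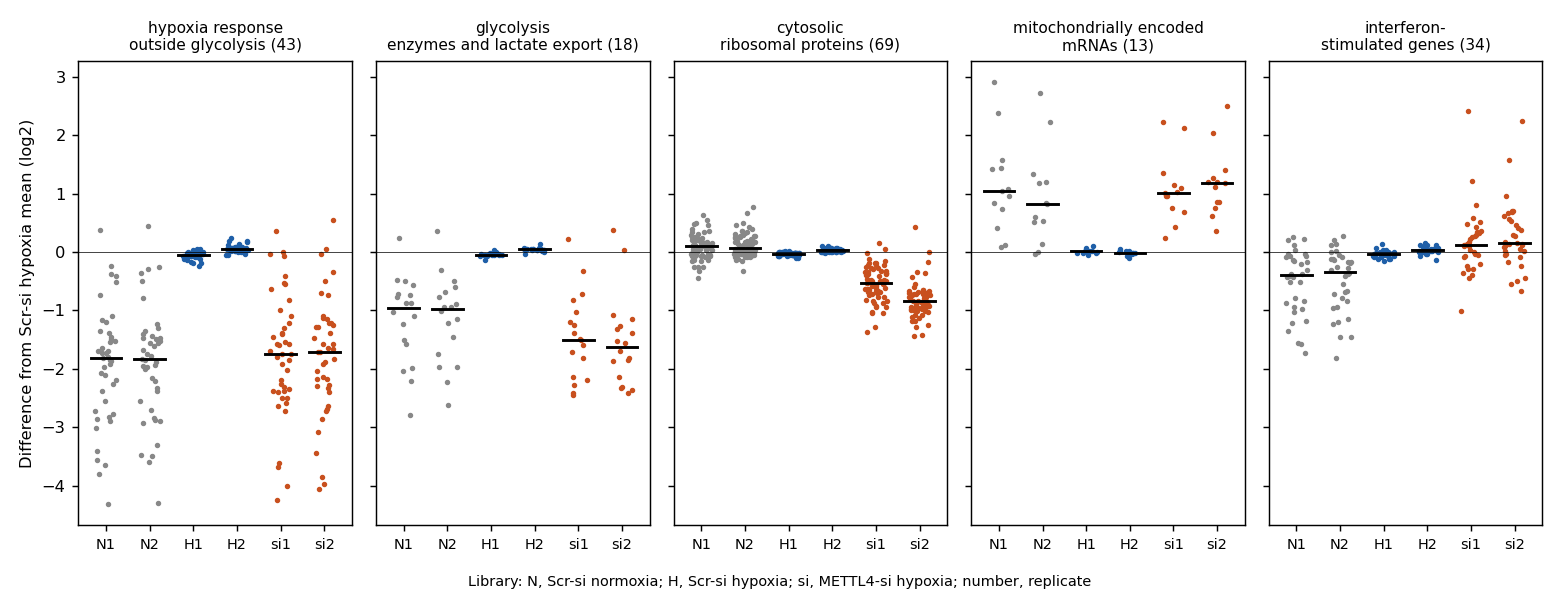
Log2 difference of each member of 5 gene lists from the mean of the Scr-si hypoxia libraries, by library, with the number of members in brackets and the median as a black bar. The hypoxia and glycolysis lists are low in normoxia and in METTL4-si, the ribosomal proteins are low in METTL4-si alone (medians -0.52 and -0.84), and the mitochondrially encoded mRNAs are high in normoxia and METTL4-si.

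Of 30 proteasome subunits 10 were lower and 1 was higher, beside 15.3% lower and 12.5% higher over all tested genes. Hypoxia had not moved 27 of the 30, and these held all 10 lower genes. The median log2 fold change of the 30 was -0.30, and in METTL4-si replicate 2 alone it was -0.40. PSMB2 of the core particle fell from 103 and 104 CPM to 54.2 and 46.5 CPM. All 7 genes of the 14-3-3 family, adaptor proteins that bind phosphorylated partners, were lower, a group chosen after its values had been seen. YWHAZ fell from 2239 and 2240 CPM to 1085 and 1024 CPM, and YWHAH, the least changed, from 91.1 and 86.9 CPM to 62.4 and 54.8 CPM. Their median log2 fold change was -1.08. Hypoxia had moved SFN and YWHAG, unlike the other 5, and SFN is also 1 of the 9 squamous markers. EEF1A1, the translation elongation factor and likewise chosen afterwards, fell from 5294 and 5488 CPM to 2868 and 2523 CPM, while EEF2 had 1011 and 1056 CPM against 1033 and 717 CPM and did not pass (adjusted p = 0.26). Of 10 S100 genes 5 were lower and none was higher, and of 71 mitochondrial ribosomal proteins 19 were lower and 3 were higher, or 1 with the libraries centred on equal medians.

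IFI6, a mitochondrial antiviral protein gene (chr1:27992575-27998723, GRCh37), had 10.7 and 9.02 CPM in normoxia, 10.96 and 10.95 CPM in Scr-si in hypoxia, and 62.4 and 55.4 CPM in METTL4-si, a log2 fold change of 2.32 (SE 0.11, adjusted p = 0.00011), and it was the first of the leading higher genes not moved by hypoxia. IFI44L rose from 13.2 and 16.6 CPM to 35.5 and 46.1 CPM. Of 34 interferon-stimulated genes 8 were higher (23.5%), 2 lower (5.88%) and 24 did not pass, beside 12.5% higher and 15.3% lower over all tested genes. Hypoxia had not moved 19 of the 34, and 4 of these were higher. The median log2 fold change of the 34 was 0.13. Without METTL4-si replicate 1, 12 were higher and 4 lower. HERC5, a ligase for the ISG15 tag, rose from 66.5 and 69.2 CPM to 102 and 133 CPM, and IFI27 from 30.1 and 35.9 CPM to 58.4 and 54.1 CPM. Both were already higher in hypoxia than in normoxia, where HERC5 had 34.9 and 40.9 CPM and IFI27 9.27 and 8.62 CPM. ISG15 itself fell from 42.5 and 45.3 CPM to 37.01 and 27.41 CPM (adjusted p = 0.049). Of 15 genes of MHC class I presentation 5 were higher (33.3%) and none was lower. Hypoxia had not moved 7 of the 15, and 1 of these was higher. Among the 5, NLRC5, the activator of these genes, rose from 14.6 and 15.0 CPM to 31.7 and 35.7 CPM. TAP1, a peptide transporter, rose from 27.4 and 30.3 CPM to 46.2 and 49.6 CPM. With the libraries centred on equal medians 2 of the 15 were higher, and with the 4 hypoxia libraries alone 3.

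The letters GAAA, followed after 2 bases of any kind by GAAA again, a core of the element that interferon-activated factors bind, occurred on either strand within 250 bases before the start of 3.07% of all promoters. They occurred in 15 of the 27 interferon-stimulated genes with a promoter (55.6%) and in 6 of the 7 of these that were called higher. IFI6 held 3 matches, which are all in the window below, and IFI44L held 2, of which the nearer to the start is shown, with the matches in capitals.
IFI6, chr1:27672272-27672352, GRCh38.p14, minus strand: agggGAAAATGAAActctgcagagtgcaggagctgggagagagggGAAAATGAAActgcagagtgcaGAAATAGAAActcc
IFI44L, chr1:78620367-78620388, GRCh38.p14, plus strand: ctagtgagGAAAAAGAAAgtta

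ABCA1, the pump that moves cholesterol out of cells, had 5.65 and 3.75 CPM in normoxia, 9.79 and 8.67 CPM in Scr-si in hypoxia, and 44.9 and 47.9 CPM in METTL4-si (log2 fold change 2.21, SE 0.17, adjusted p = 0.00038). Other known targets of the liver X receptors, a group chosen after its values had been seen, also rose. ABCG1, a second cholesterol pump, rose from 0.76 and 0.64 CPM to 8.65 and 6.59 CPM, MYLIP, a ubiquitin ligase, from 19.6 and 19.6 CPM to 38.9 and 36.7 CPM, and SREBF1, a regulator of fatty acid synthesis, from 205 and 224 CPM to 442 and 382 CPM. Of the 10 genes of that group 5 were higher, and SCD, a fatty acid desaturase, did not pass, with a log2 fold change of -0.03. Of the lists of lipid genes, lipid droplets and lipolysis had 2 higher and 5 lower of 10, and fatty acid synthesis 3 higher and 3 lower of 10. The 2 were DGAT1 and DGAT2, with log2 differences of 0.37 and 0.82 in METTL4-si replicate 2 alone, so DGAT1 stayed under 1.3-fold there. Of 26 lysosomal genes 7 were higher, 2 were lower and 17 did not pass, beside 12.5% higher and 15.3% lower over all tested genes. Hypoxia had not moved 20 of the 26, and 6 of these were higher. The cathepsin L gene CTSL rose from 30.1 and 33.5 CPM to 61.7 and 53.6 CPM, and CTSD, the cathepsin D gene, had 324 CPM in METTL4-si replicate 1 and 161 in replicate 2 against 81.8 and 94.2 CPM.

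The other leading higher genes not moved by hypoxia were of several kinds. CKAP4, a receptor of the endoplasmic reticulum and cell surface, rose from 32.5 and 35.8 CPM to 76.0 and 71.2 CPM, and GLDC, the glycine decarboxylase, from 12.2 and 12.2 CPM to 25.7 and 33.2 CPM. TMC7 rose from 12.9 and 12.4 CPM to 28.9 and 34.2 CPM and CERS4, a ceramide synthase, from 5.75 and 7.66 CPM to 17.4 and 15.5 CPM. ESYT3, a membrane tether, and SEMA3B, a secreted semaphorin, had log2 fold changes of 1.14 and 1.41, the latter with 23.1 and 12.8 CPM in METTL4-si and a SE of 0.29.

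Among lncRNAs the balance was the reverse of that of protein-coding genes. Of 1758 lncRNAs tested, 190 were higher (10.8%) and 105 lower (5.97%), against 1635 (13.1%) and 2188 (17.5%) of 12507 protein-coding genes. The leading lower lncRNAs included H19, MIR210HG, the host of a hypoxia-induced miRNA, UCA1 and FAM13A-AS1. UCA1 fell from 98.3 and 101.2 CPM to 24.3 and 29.6 CPM, and MIR210HG from 23.4 and 25.4 CPM to 3.589 and 4.005 CPM. The leading higher lncRNAs were MIR663AHG, MIR9-1HG, LINC01629, LINC02582 and DLGAP1-AS2, all of which had been lower in hypoxia than in normoxia. Antisense genes such as FAM13A-AS1 may share reads with their partner genes, for the reason given above. MIR663AHG rose from 147 and 162 CPM to 664 and 767 CPM. Of 131 small nucleolar RNA genes, a class looked at after its values had been seen and only partly captured by libraries of long fragments, 34 were higher (26.0%) and none was lower, and 3 of the 34 were not moved by hypoxia. NEAT1, a nuclear lncRNA, fell from 5966 and 6335 CPM to 3714 and 4167 CPM.

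Cell cycle genes changed modestly. The share of lower genes was 25% for DNA replication, while that for mitosis and the spindle was near the 15.3% of all tested genes. Of 40 DNA replication genes 10 were lower and none was higher, with PCNA, the sliding clamp, going from 113 and 116 CPM to 76.3 and 65.1 CPM and MCM4 of the helicase from 478 and 470 CPM to 307 and 318 CPM. Of 38 genes of mitosis and the spindle 7 were lower (18.4%) and 1 was higher, the latter, ESPL1, not without METTL4-si replicate 1. With the libraries centred on equal medians 12 were lower. MKI67, a marker of cycling cells, had 1076 and 1011 CPM in Scr-si and 1153 and 1301 CPM in METTL4-si and did not pass (adjusted p = 0.084). Of 18 replication-dependent histone genes 6 were lower, and 14 without METTL4-si replicate 1.

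Genes of the epithelial-mesenchymal transition moved in both directions. Their counts stand beside 12.5% higher and 15.3% lower over all tested genes. Of 8 tested EMT transcription factors 3 were higher and 1 lower, and 3 and 2 without METTL4-si replicate 1. SNAI2 (Slug) fell from 53.8 and 55.4 CPM to 19.9 and 22.6 CPM, while SNAI1 (Snail) had 0.54 and 0.41 CPM in Scr-si and 1.52 and 1.74 CPM in METTL4-si, and SOX2 rose from 1.71 and 1.64 CPM to 8.02 and 7.70 CPM. TWIST1 and ZEB1 did not pass, with log2 fold changes of 0.07 and 0.11. Of 14 mesenchymal genes 4 were lower, namely COL5A1, ITGA5, MMP2 and TGFBI, and FN1 was higher. ITGA5, the fibronectin receptor subunit, fell from 106 and 124 CPM to 52.9 and 59.0 CPM. Without METTL4-si replicate 1, FN1 and MMP2 were no longer called. Of 23 epithelial junction genes 5 were higher and 3 lower, or 5 and 5 without METTL4-si replicate 1 and 6 and 5 with the libraries centred on equal medians or by edgeR, with EPCAM going from 122 and 123 CPM to 238 and 237 CPM. CDH1, the E-cadherin gene, had 365 and 397 CPM in Scr-si and 551 and 354 CPM in METTL4-si, groups that overlapped.

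The enzymes that write, read and erase methyl groups on adenine were mostly not called. Of 20 tested, 1 was higher (5%) and 5 were lower (25%), beside 12.5% and 15.3% of all tested genes. METTL3, the writer of N6-methyladenosine in mRNA, rose from 52.6 and 48.8 CPM to 68.7 and 68.3 CPM, and its partner WTAP fell from 115 and 113 CPM to 79.8 and 87.6 CPM. The demethylase ALKBH5, which hypoxia induces, fell from 142 and 146 CPM to 73.9 and 58.1 CPM, FTO from 54.8 and 53.5 CPM to 34.3 and 34.0 CPM, and ALKBH1 from 33.7 and 33.7 CPM to 24.1 and 24.5 CPM. N6AMT1, another candidate writer, had 5.30 and 5.34 CPM against 7.38 and 6.05 CPM and did not pass (adjusted p = 0.14).

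The same siRNA comparison in BFTC-909, a cell line from an upper tract urothelial cancer with 2 libraries per group, is set beside FADU without a test. Over 14869 BFTC-909 genes that passed the filter, 16.6% had both METTL4-si libraries above both Scr-si hypoxia libraries with at least a 1.3-fold mean difference, and 13.2% had both below. Of the genes that rose in FADU and were present, 591 of 1623 (36.4%) were above in BFTC-909 and 116 (7.15%) below. Of those that fell, 626 of 2247 (27.9%) were below and 118 (5.25%) above. For genes not moved by hypoxia the shares were 39.6% above among 777 that rose and 20.9% below among 1383 that fell. By group, 40 of 42 hypoxia response genes and 15 of 18 glycolysis genes were below in BFTC-909, 26 of 30 interferon-stimulated genes were above, 18 of 69 ribosomal proteins were below, and none of the 13 mitochondrially encoded mRNAs was above or below. IFI6 had a log2 difference of 5.55 in BFTC-909, with 1.16 and 1.39 CPM in Scr-si and 92.2 and 120.0 CPM in METTL4-si. CKAP4 went the other way, by -0.44. Mitosis genes, which changed little in FADU, were below in 31 of 38.

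FADU clones with a mutated METTL4 catalytic motif (DPPW), 1 library from each of 2 clones against 1 CRISPR control library, also in hypoxia, are set beside FADU with no test, since the control has no replicate. Over 15719 genes, 8.94% were at least 1.3-fold above the control in both clones and 11.8% below. Of 2472 genes that fell in METTL4-si and were in that table, 303 (12.3%) were below in both clones and 213 (8.62%) above, which is near the shares over all genes. Of 1899 that rose, 185 (9.74%) were above and 378 (19.9%) below. Of genes that fell in METTL4-si and were called in the hypoxia contrast, 198 of 929 (21.3%) were below, whereas of those not moved by hypoxia 94 of 1437 (6.54%) were. Of the hypoxia response genes 13 of 43 were below and 3 above, of the glycolysis genes 1 of 18 was below and 1 above, and of the ribosomal proteins 5 of 69 were below and none above. NDRG1 was lower by 0.89 and 0.88 on the log2 scale in the clones, CA9 by 1.44 and 0.93, and EGLN3 was 0.37 and 0.36 above the control. Some lists stood otherwise in the clones than under the siRNA. All 23 cholesterol synthesis genes were below the control in both clones, as against 12 that fell in METTL4-si, while in BFTC-909 none of 22 was below and 5 were above. Of the interferon-stimulated genes 20 of 33 were below in both clones and none was above, and of the inflammatory list 11 of 15 were below and none above. IFI6 differed from the control by 0.02 and -0.70 on the log2 scale.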

How the data were processed

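RNA of FADU cells was sequenced after rRNA depletion with a stranded kit. Per the submitters' processing notes, reads were trimmed with Trim Galore, aligned to hg19 with HISAT2, counted per gene with HTSeq and scaled by edgeR's TMM method, with versions not given in the sources used here. The deposited values are a normalized signal, counts per 1000000 reads (CPM) after TMM scaling. Whole reads were recovered for 100% of them, within 0.01 read. Ensembl IDs were named from GENCODE v44 lifted to GRCh37 (18887 of 19505 found), and promoter sequences came from RefSeq (GRCh38.p14).

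Differences of log2(value + 1) were tested with limma 3.58.1 (R 4.3.3) with a mean-variance trend, over the 16324 genes that reached 1 CPM in 2 or more of 6 libraries. The Scr-si libraries in normoxia shared the estimate of the spread. Calls needed an adjusted p under 0.05 and 1.3-fold. Whole reads went through edgeR 4.0.16 as 1 of 18 alternatives. The model was tested on simulated data.

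Named genes were METTL4, the 12 leading genes in each direction, the 8 leading not moved by hypoxia, the 5 leading lncRNAs and up to 5 called members of each of 58 lists in each direction. Genes given as not having passed, the 14-3-3, liver X receptor, translation factor and snoRNA groups, EEF1A1 and EEF2 were added after their values were seen. The members and lists were chosen with earlier results of these data known. The tables of BFTC-909 and of the clones were scaled separately and compared only within themselves. In the table of the clones, 40.9% to 43.0% of reads lay on rows that name no gene and were left out. A few genes that the rule names are not reported here.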

Additional observations from a re-analysis of the deposited data

Results flagged for a closer look

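CKAP4, which rose in both METTL4-si libraries of FADU, was lower in both METTL4-si libraries of BFTC-909, by -0.44 on the log2 scale. It was picked out among the leading genes because both METTL4-si libraries of one line moved one way and both of the other line the opposite way. Many other genes did so too. Of the genes that rose in FADU 116 were below in BFTC-909, and of those that fell 118 were above. ACSS2 had log2 differences of -1.01 in FADU and 1.31 in BFTC-909, and ATG9A had 0.81 and -0.55. The difference between the lines was not tested.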

How the results depend on the processing

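With a pseudocount of 5, 1299 genes were higher. At 2-fold, 287 were higher and 386 lower, or 44 and 62 among genes not moved by hypoxia. With single libraries left out, higher genes numbered 771 to 3072 and lower genes 1264 to 2980, and among genes not moved by hypoxia 224 to 1543 were higher and 681 to 1791 lower. The lowest counts came without a Scr-si library in hypoxia, and the 3072 and 1543 came without METTL4-si replicate 2. Where a group kept 1 library, it was assumed to vary like the other groups, though the METTL4-si replicates differed more than the Scr-si replicates in hypoxia. Without METTL4-si replicate 1 and normoxia replicate 1 together, 2485 genes were higher and 3144 lower, and of genes not moved by hypoxia 1942 were lower. METTL4 had log2 fold changes of -0.09 to 0.06. Centring the libraries on equal medians gave 1633 higher and 2810 lower genes, so that 36.8% of calls were higher in place of 44.9%. At an unadjusted p under 0.05, 2483 were higher and 2738 lower.

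Replicate numbers did not pair the Scr-si hypoxia libraries with the others. The correlation of replicate differences was -0.04 between normoxia and Scr-si hypoxia, and -0.07 between Scr-si and METTL4-si in hypoxia. It was 0.65 between normoxia and METTL4-si, whose first replicates share transcripts of other cells. Of the 216 genes at least 4-fold higher in METTL4-si replicate 1, 114 were also at least 2-fold higher in normoxia replicate 1 than in replicate 2. With the replicate number as a block, 2113 genes were higher and 2516 lower, and all 331 named genes other than METTL4 kept their call. Over the 18 alternatives no named gene reversed. Without METTL4-si replicate 1, 20 lost their call, of which MMP2 lost it by its adjusted p (0.051) and the others by fold. Without Scr-si hypoxia replicate 1 or 2, 95 and 113 lost it. Genes not moved by hypoxia could not be counted with the 4 hypoxia libraries alone.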
